A study of Mus musculus with 72 samples.

Results

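The genes described here are 9 genes of glycogen metabolism in mouse liver, chosen by symbol among the 55573 genes listed in the count table: Gys2, Gbe1, Gyg, Ugp2, Pygl, Phka2, Ppp1r3b, Ppp1r3c and Ppp1r3g. All 9 had counts and passed the filter on low counts in every comparison. The table held 72 bulk liver libraries from male mice labelled C57BL/6 (C57BL/6J in the study's methods), in 4 groups of 18 with 3 mice at each of 6 zeitgeber times (ZT, hours after lights on): ZT2, ZT6, ZT10, ZT14, ZT18 and ZT22. Every mouse carried floxed Bmal1 (Bmal1 fl/fl). WT mice carried no Cre, while the LKO genotype added Albumin-Cre, active in hepatocytes, so other liver cells of LKO mice kept the gene. Mice were either specific pathogen-free (SPF), with a gut microbiota, or germ-free (GF), raised without microbes. The design asked how liver Bmal1 (genotype) and gut microbes (microbial status), alone and together, set hepatic RNA over the day.

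Glycogen is the liver's glucose store, filled after feeding and drawn on between meals. UDP-glucose pyrophosphorylase makes the activated sugar, glycogenin primes a chain, glycogen synthase lengthens it and the branching enzyme folds it into a tree, while glycogen phosphorylase releases the glucose again. Synthase and phosphorylase are switched in opposite directions by phosphorylation: phosphorylase kinase turns phosphorylase on, and protein phosphatase 1, held on the particle by glycogen-targeting subunits, removes phosphates from both enzymes. BMAL1 is a core transcription factor of the circadian clock, which times many metabolic steps in the liver.

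Library depth ran from 17369927 to 22076113 counts assigned to genes. Levels are given as CPM (counts scaled to library size, with TMM factors), and levels are compared between genes only as CPM per kb of exon. Arntl, the gene for BMAL1, had a median of 15.5 CPM in SPF WT and 11.6 in SPF LKO, and of 18.9 in GF WT and 10.1 in GF LKO, counted over the whole gene. Npas2, a clock gene held down by repressors that BMAL1 drives, lay further apart: the median was 0.280 CPM in SPF WT and 24.6 in SPF LKO, and 0.335 in GF WT and 26.2 in GF LKO. Against this check 4 libraries stood apart, so their labels are in doubt. The libraries labelled SPF LKO ZT14 replicate 2 and SPF LKO ZT18 replicate 1 had Npas2 at 0.221 and 1.83 CPM, where the other SPF LKO libraries of those times lay between 24.0 and 36.4. The library labelled SPF WT ZT14 replicate 3 had Arntl at 2.11 CPM against 15.8 and 19.3 in the others of its time. The library labelled GF WT ZT6 replicate 3 had Arntl at 8.24 CPM against 1.64 and 2.42. Results that rest on these libraries are given with and without them.

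Hepatocyte RNA was the main signal. The 6 hepatocyte markers, all with counts, summed to between 88717 and 140474 CPM in SPF WT, 47460 and 133434 in SPF LKO, 124021 and 180926 in GF WT, and 60976 and 85361 in GF LKO. The sum moved with genotype, and in WT livers also with microbial status, with medians of 113650 CPM in SPF WT and 148041 in GF WT. The sum came mostly from Alb, at a median of 63992 CPM over the 72 libraries (24684 to 134515). The other hepatocyte markers had medians from 4074 (Serpina1e) to 10130 CPM (Apoa1). The part of each marker in the shift of the sum was not tested. The 5 cholangiocyte markers summed to a median of 53.3, 70.3, 44.5 and 91.0 CPM in the same order of groups, mostly from Spp1. The 5 pancreas markers summed to medians of 28.1, 77.5, 45.7 and 107 CPM, nearly all from Cela1, while Prss2, Cpa1, Pnlip and Ctrb1 each had a median of 0 and at most 0.119 CPM. The part of these shifts in the results was not tested. In bulk tissue, fewer cells of a type and less RNA per cell cannot be told apart.

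Levels per length differed widely among the 9 genes. Ugp2, which makes UDP-glucose, was first in each group, with medians of 172 CPM per kb in SPF WT, 208 in SPF LKO, 211 in GF WT and 234 in GF LKO. Gys2, the liver glycogen synthase, was second in WT livers, at 96.8 CPM per kb in SPF and 117 in GF, and behind 4 others in LKO livers, at 39.8 and 35.8. Pygl, the liver glycogen phosphorylase, had medians between 69.1 and 87.2 CPM per kb in the 4 groups. The targeting subunit Ppp1r3b had medians between 59.4 and 87.8 CPM per kb and overlapped Pygl in range in each group, so those neighbours were not separated by their spread. Ppp1r3c had medians of 29.4 to 67.4 CPM per kb and Gbe1, the branching enzyme, of 20.01 to 31.6, with Gbe1 above Ppp1r3c in SPF WT and below it in the other groups. Phka2, Gyg and Ppp1r3g had the lowest medians, all between 0.189 and 4.75 CPM per kb, and the ranges of Phka2 and Gyg overlapped in each group.

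**Figure D1:**
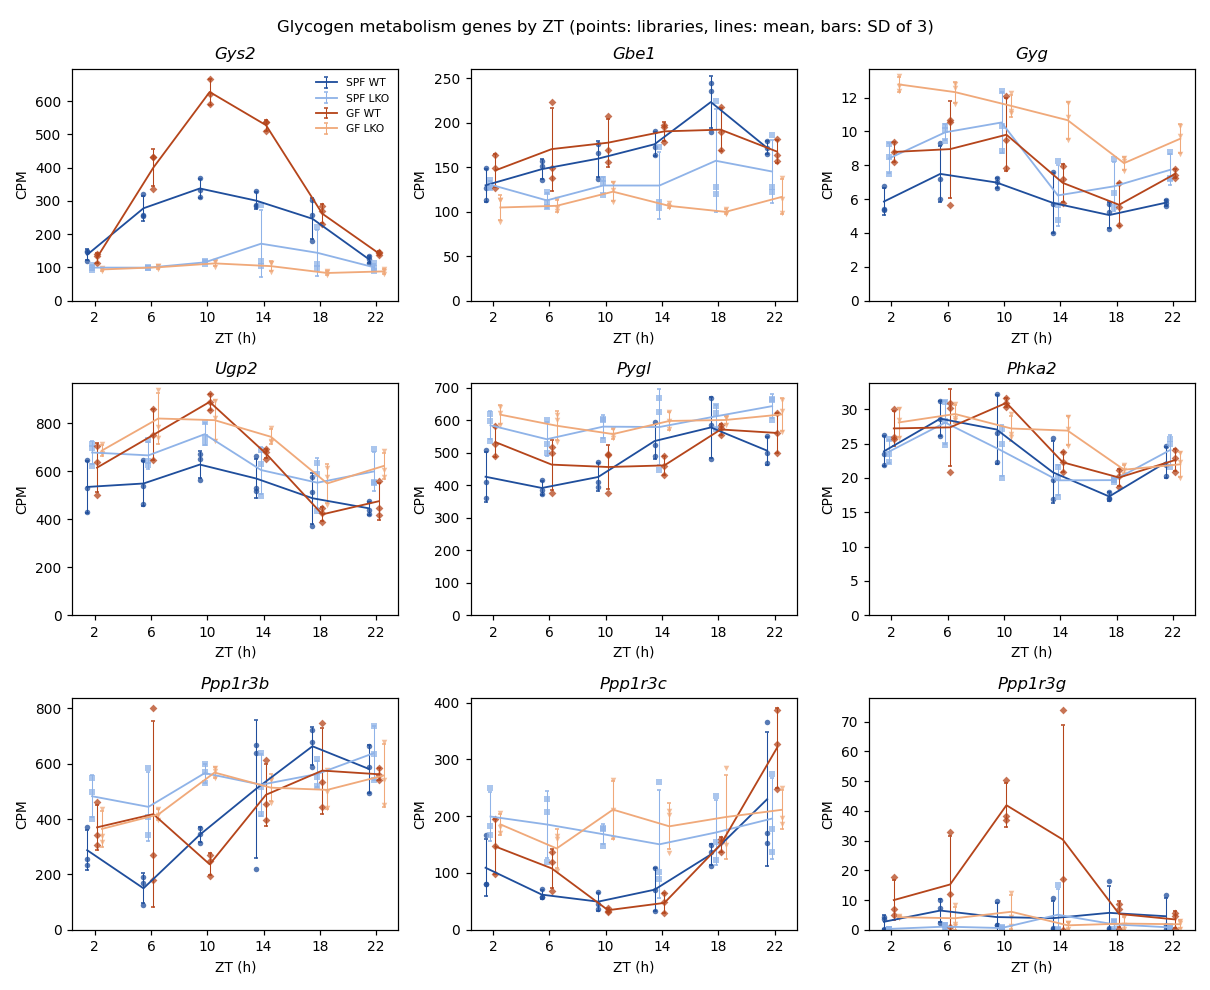
Level of each of the 9 genes (CPM, one panel a gene, axes from 0) against ZT in hours, with points for libraries, lines for the means of 3 and bars for their SD, by group. Gys2 in WT livers rose to its top at ZT10 in both microbial states and stayed low in LKO livers, apart from 1 library at ZT14 and 1 at ZT18 in SPF LKO.

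Gys2 (ENSMUSG00000030244; GRCm38 chr6:142422613-142473109, minus strand) is the liver form of glycogen synthase, and it had the largest called genotype difference of the 9 genes in SPF mice. In SPF WT livers Gys2 ranged from 114 CPM through a median of 257 to 369, and in SPF LKO livers from 89.7 through 106 to 288. In GF WT livers it ranged from 113 through 310 to 668 CPM, and in GF LKO livers from 76.6 through 95.2 to 119. The lowest WT values, at ZT2 and ZT22, overlapped the LKO ranges, and the top 2 SPF LKO values came from libraries that stood apart. Over all ZT, Gys2 was lower in LKO by a log2 fold change of -0.97 ± 0.17 (SE, n = 18 per group) in SPF mice, adjusted p = 3.53e-05 (edgeR's quasi-likelihood test, Benjamini-Hochberg over all genes). In GF mice the log2 fold change was -1.84 ± 0.21, adjusted p = 2.7e-09. The SPF value was -1.17 without the 4 libraries that stood apart.

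The Gys2 difference varied over the day. At ZT10 the 3 SPF WT livers had 311, 331 and 369 CPM and the 3 SPF LKO livers 110, 119 and 116. At the same time GF WT livers had 668, 592 and 622 CPM and GF LKO livers 102, 115 and 119. The genotypes were fully apart at this time in both states, with log2 fold changes of -1.56 in SPF (adjusted p = 5.55e-07) and -2.48 in GF (adjusted p = 4.22e-09) by edgeR's quasi-likelihood test. At ZT22 the values came close: 114, 135 and 124 CPM in SPF WT against 89.7, 99.2 and 112 in SPF LKO, and 148, 136 and 143 in GF WT against 90.0, 78.4 and 94.8 in GF LKO. The ZT22 difference passed the test in GF, at -0.69, and did not pass in SPF. In GF mice Gys2 was lower in LKO livers at each of the 6 times, with log2 fold changes of -0.47, -2.00, -2.48, -2.35, -1.63 and -0.69 from ZT2 to ZT22, all called, of which ZT2 was not called with DESeq2 size factors. In SPF mice it was called at ZT2, ZT6 and ZT10, at -0.50, -1.49 and -1.56. At ZT14 the SPF LKO livers had 120, 288 and 105 CPM and at ZT18 223, 97.9 and 110, where 288 and 223 come from the libraries labelled SPF LKO that stood apart. Gys2 without the 4 libraries was also called at ZT14 (-1.46, adjusted p = 9.996e-05) and ZT18 (-1.21, adjusted p = 0.00102) in SPF mice by the same edgeR test.

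A 24 h cosine curve described Gys2 well in WT livers. Its amplitude was 0.75 ± 0.09 log2 units in SPF WT, a peak 2.83-fold above the trough, with the peak at ZT11.4 (adjusted p = 1.94e-05, edgeR's F test of the curve). In GF WT the amplitude was 1.22 ± 0.07, a 5.46-fold span, with the peak at ZT11.3 (adjusted p = 1.44e-09). In GF LKO a 1.3-fold span remained (amplitude 0.19, adjusted p = 0.00853), and in SPF LKO the curve did not pass (0.33 ± 0.13, adjusted p = 0.0513). Without the libraries that stood apart the SPF LKO amplitude was 0.11. The rhythms of WT and LKO differed in GF mice (adjusted p = 6.65e-11, edgeR). In SPF mice the same test gave adjusted p = 0.115 with all libraries and 0.000128 without the 4. Between GF WT and SPF WT the difference of rhythm gave adjusted p = 0.148 (unadjusted 0.00035), so the higher GF WT peak was not called as a change of rhythm over all genes. At ZT10 alone GF WT exceeded SPF WT by a log2 fold change of 0.87 (adjusted p = 0.00154), and at ZT14 by 0.80 (adjusted p = 0.237), or 0.76 (adjusted p = 0.0135) without the 4 libraries. The ZT14 call also came with leaving out SPF LKO ZT14 replicate 2 alone, a library of another group.

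Gbe1 (ENSMUSG00000022707; chr16:70313949-70569716, plus strand), which adds the branch points, was also lower without the liver clock. It ranged from 113 through a median of 165 to 245 CPM in SPF WT, and from 104 through 127 to 224 in SPF LKO. The GF WT range was 127 through 169 to 223 CPM, and the GF LKO range 87.8 through 107 to 137. The log2 fold change of LKO against WT was -0.33 ± 0.09 in SPF (adjusted p = 0.00731) and -0.66 ± 0.07 in GF (adjusted p = 1.05e-10) by edgeR's test. At ZT18 in GF mice the 3 WT livers had 190, 217 and 169 CPM and the LKO livers 103, 98.9 and 97.2, with no overlap. The single-time test called Gbe1 in GF mice at ZT6 (-0.68), ZT10 (-0.53), ZT14 (-0.84) and ZT18 (-0.92). Without the 4 libraries the ZT6 value was -0.43 (adjusted p = 0.0264, edgeR). The library labelled GF WT ZT6 replicate 3 held 223 CPM, the top of the GF WT range, against 138 and 149 in the others of its time. In SPF mice no single time was called with all libraries. With the 4 libraries left out, ZT6 (-0.39), ZT14 (-0.72) and ZT18 (-0.83) were called. The SPF LKO libraries at 172 CPM (ZT14) and 224 CPM (ZT18) are among the 4, and the ZT6 call came with leaving out the library labelled GF WT ZT6 replicate 3, of another group, whose spread entered the fit. Gbe1 followed a 24 h curve in SPF WT, with a 1.53-fold span and a peak at ZT16.8 (adjusted p = 0.00433), and in no other group with all libraries. In GF WT the curve gave adjusted p = 0.102 with all libraries and 0.00473 without the 4. No difference of rhythm between groups was called for Gbe1 by edgeR. The adjusted p was 0.655 (SPF) and 0.362 (GF) between genotypes, and 0.516 (WT) and 0.304 (LKO) between microbial states.

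Gyg (ENSMUSG00000019528; chr3:20122084-20155317, minus strand), glycogenin, the self-glucosylating primer, moved the other way at a low level. The median was 5.88 CPM in SPF WT, 8.42 in SPF LKO, 7.82 in GF WT and 11.1 in GF LKO. The lowest GF LKO library, 7.69 CPM, lay close to the GF WT median, and the ranges of the groups overlapped. Gyg was higher in LKO by a log2 fold change of 0.42 ± 0.11 in SPF (adjusted p = 0.00327) and 0.45 ± 0.10 in GF (adjusted p = 0.000417). Gyg was also higher in GF than in SPF livers, by 0.34 ± 0.11 in WT (adjusted p = 0.0157) and 0.38 ± 0.10 in LKO (adjusted p = 0.00225), all by edgeR's test. At ZT2 the 4 groups came out in separate steps: 6.79, 5.34 and 5.44 CPM in SPF WT, 9.25, 7.48 and 8.47 in SPF LKO, 9.38, 8.21 and 8.77 in GF WT, and 12.7, 12.4 and 13.3 in GF LKO. Only the SPF LKO and GF WT livers overlapped there, and each of the 4 comparisons was called at ZT2, with log2 fold changes from 0.50 to 0.60. Without the filter on low counts neither genotype call of Gyg at ZT2 was made. In SPF mice LKO was also called higher at ZT10 (0.59, adjusted p = 0.0316, edgeR). Its 24 h curve passed in 3 groups, all but SPF WT, with peaks between ZT5.91 and ZT6.06. In SPF WT the adjusted p was 0.0919, and 0.0409 without the 4 libraries. No difference of rhythm between groups was called for Gyg.

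Ugp2 (ENSMUSG00000001891; chr11:21321138-21371201, minus strand) makes UDP-glucose for the synthase. It overlaps Mir1933 and Gm12043. Reads over exons shared with an overlapping gene on either strand were left out of the counts, so the level of Ugp2 is uncertain there. The same limit applies to Pygl, Phka2, Ppp1r3b and Ppp1r3g wherever they share exon bases with their overlapping gene. Ugp2 ranged from 370 through a median of 528 to 669 CPM in SPF WT and from 434 through 637 to 804 in SPF LKO. The 434 CPM came from the library labelled SPF LKO ZT18 replicate 1, which stood apart. In GF mice the medians were 648 CPM in WT and 718 in LKO, within overlapping ranges. The log2 fold change of LKO against WT was 0.26 ± 0.08 in SPF (adjusted p = 0.0130) and 0.15 ± 0.11 in GF (adjusted p = 0.294). Ugp2 swung most in GF WT livers, from 424, 447 and 389 CPM at ZT18 to 921, 888 and 855 at ZT10. SPF WT livers had 669, 562 and 651 CPM at ZT10, below each GF WT value, with a log2 fold change of 0.48 for GF against SPF (adjusted p = 0.0340). The 24 h curve passed in GF WT, with a 2.02-fold span peaking at ZT8.47 (adjusted p = 2.61e-05), and in GF LKO, with a 1.47-fold span (adjusted p = 0.000846). It did not pass in SPF WT (adjusted p = 0.0870) or SPF LKO (adjusted p = 0.0753), and no comparison of rhythms between groups was called for Ugp2.

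Pygl (ENSMUSG00000021069; chr12:70190811-70231488, minus strand; F730035M05Rik lies on the opposite strand), the enzyme of glycogen breakdown, was modestly higher in LKO. It ranged from 360 through a median of 476 to 669 CPM in SPF WT, 446 through 601.2 to 668 in SPF LKO, 376 through 499 to 623 in GF WT and 533 through 599 to 663 in GF LKO. The lowest SPF LKO value, 446 CPM, came from the library labelled SPF LKO ZT14 replicate 2, which stood apart. The LKO livers filled the upper part of the WT ranges. The log2 fold change was 0.30 ± 0.07 in SPF (adjusted p = 0.00121) and 0.24 ± 0.05 in GF (adjusted p = 0.00048). At ZT10 SPF WT livers had 394, 410 and 473 CPM and SPF LKO livers 539, 600 and 603, the only single time at which Pygl was called in SPF mice with all libraries (0.45, adjusted p = 0.0259). Without the 4 libraries ZT6 was called too (0.47), where the library left out was GF WT ZT6 replicate 3, of another group. Pygl followed a 24 h curve in SPF WT, with a 1.48-fold span peaking at ZT17.7 (adjusted p = 0.00448), and in GF WT, with a 1.3-fold span peaking at ZT21.4 (adjusted p = 0.0324). The curve passed in neither LKO group, and the rhythms of WT and LKO were not called as different (adjusted p = 0.288 in SPF and 0.395 in GF).

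The 250 bases before the RefSeq start of Pygl (GRCm38.p6, chr12:70227684-70227933, minus strand, 5′ to 3′) are shown for the nuclear receptor half-site AGGTCA, searched on both strands, which the clock's REV-ERB and ROR factors bind as part of their element. Its reverse complement, in capitals, starts at position -128 from the start site.
Pygl: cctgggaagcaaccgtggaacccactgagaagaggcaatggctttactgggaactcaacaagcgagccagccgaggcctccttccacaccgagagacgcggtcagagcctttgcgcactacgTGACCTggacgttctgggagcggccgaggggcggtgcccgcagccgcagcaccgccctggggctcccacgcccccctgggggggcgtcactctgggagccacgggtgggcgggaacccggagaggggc
Of 32851 RefSeq promoter windows of this length, 14.0% held the half-site, and 15.8% of their 27025 genes had it in a window. Among the 9 genes, 7 had a RefSeq promoter in the table, with 8 windows in all, and Pygl was the only one of these 7 with this match. The match describes letters in a window and was not linked to binding here. Gys2 and Ppp1r3b were not matched. The D-box letters TTATGTAA, searched the same way, were in 0.819% of windows and in none of these 8.

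Taken per length, Gys2 and Pygl changed places with genotype. The ratio of Gys2 to Pygl (CPM per kb over CPM per kb) had a median of 1.37 in SPF WT, with a range from 0.583 to 2.16, and of 1.54 in GF WT, from 0.553 to 4.08. In LKO the median was 0.453 in SPF and 0.396 in GF. The GF LKO ratio stayed between 0.327 and 0.547 in all 18 libraries, below each GF WT library. In SPF LKO the 2 highest ratios, 1.68 and 1.01, came from the libraries labelled SPF LKO ZT14 replicate 2 and ZT18 replicate 1, and the next was 0.528, below the lowest SPF WT ratio. At ZT10 the ratio was 2.06 ± 0.0382 in SPF WT, 0.514 ± 0.0147 in SPF LKO, 3.61 ± 0.425 in GF WT and 0.520 ± 0.0392 in GF LKO (SD, n = 3). By ZT22 the WT ratios were down to 0.640 ± 0.0596 (SPF) and 0.663 ± 0.0708 (GF). The ratio is given as a description, with no test of its own.

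**Figure D2:**
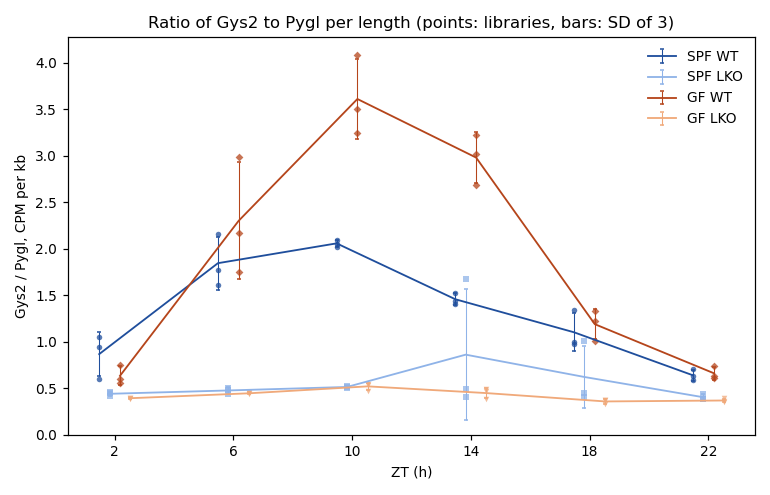
Ratio of Gys2 to Pygl (CPM per kb over CPM per kb, axis from 0) against ZT in hours by group, with points for libraries, lines for means of 3 and bars for SD. The WT lines crest at ZT10, at 2.06 in SPF and 3.61 in GF, while GF LKO reaches 0.547 at most and SPF LKO exceeds that in 2 libraries.

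Phka2 (ENSMUSG00000031295; chrX:160502166-160598878, plus strand; the antisense gene Gm15243 overlaps it), the liver regulatory subunit of phosphorylase kinase, had close medians in the 4 groups. These were 22.9 CPM in both SPF groups, 23.9 in GF WT and 26.1 in GF LKO. The ratio of LKO to WT was 0.992 in SPF (95% interval 0.884 to 1.11, adjusted p = 0.940) and 1.03 in GF (0.935 to 1.14, adjusted p = 0.673), by edgeR. Phka2 had a 24 h curve in all 4 groups, called in each. The spans were 1.56-fold in SPF WT, 1.45-fold in GF WT and 1.37-fold in each LKO group, with peaks between ZT4.54 and ZT7.20. At ZT18 SPF WT livers had 17.03, 18.0 and 16.9 CPM, below the ZT6 values of 31.2, 26.1 and 28.6. Differences of rhythm between WT and LKO were not called (adjusted p = 0.619 in SPF and 0.882 in GF), and it was the only one of the 9 genes whose curve passed in all 4 groups.

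The remaining 3 genes are targeting subunits of protein phosphatase 1. Ppp1r3b (ENSMUSG00000046794; chr8:35375739-35388139, plus strand; Gm45469 lies opposite), the main hepatic targeting subunit, ranged from 88.3 through a median of 369 to 722 CPM in SPF WT and from 343 through 546 to 737 in SPF LKO. In GF WT the range was 179 through 449 to 802 CPM, and in GF LKO 315 through 477 to 678. The LKO livers lacked the low values of WT livers in both states. Pooled over ZT, the log2 fold change of LKO against WT did not pass in SPF (0.34 ± 0.19, adjusted p = 0.200) or GF (0.15 ± 0.15, adjusted p = 0.499). With ZT as a term in edgeR's fit, SPF passed (0.48, adjusted p = 0.0143) and GF did not (0.19, adjusted p = 0.328). Single times passed too. At ZT10 the SPF WT livers had 347, 369 and 314 CPM and the SPF LKO livers 530, 569 and 599, a log2 fold change of 0.72 (adjusted p = 0.00137, edgeR). The GF WT livers had 248, 192 and 268 CPM there and the GF LKO livers 547, 584 and 573, a log2 fold change of 1.27 (adjusted p = 7.27e-06). At the same time Ppp1r3b was lower in GF WT than in SPF WT, by a log2 fold change of -0.56 (adjusted p = 0.0301).

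In SPF WT, Ppp1r3b followed a curve of 3.89-fold span with its peak at ZT18.1 (amplitude 0.98 ± 0.17, adjusted p = 0.000733). In SPF LKO the amplitude was 0.17 ± 0.09 (adjusted p = 0.289), and the rhythms of the 2 SPF groups differed (adjusted p = 0.0337, edgeR). In GF WT the outcome rested on the library labelled GF WT ZT6 replicate 3, at 802 CPM where the others had 179 and 272. With all libraries the GF WT curve gave adjusted p = 0.0965 and the difference from GF LKO 0.326. Without the 4 libraries these were 3.59e-05 and 0.00132, and the GF WT amplitude rose from 0.58 to 0.76. The library labelled SPF WT ZT14 replicate 3 had 221 CPM against 639 and 668.

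Ppp1r3c (ENSMUSG00000067279; chr19:36731731-36736653, minus strand), also called PTG, targets phosphatase 1 to glycogen in many tissues. The 250 bases before its RefSeq start (GRCm38.p6, chr19:36736605-36736854, minus strand, 5′ to 3′) are shown because they hold the canonical E-box CACGTG, the core that BMAL1 and its partner CLOCK bind, in capitals at position -104.
Ppp1r3c: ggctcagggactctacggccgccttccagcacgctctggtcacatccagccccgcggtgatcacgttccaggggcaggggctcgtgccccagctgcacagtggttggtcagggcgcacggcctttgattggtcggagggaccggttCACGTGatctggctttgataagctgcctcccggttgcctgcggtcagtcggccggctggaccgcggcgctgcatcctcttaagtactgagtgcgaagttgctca
The E-box reads the same on both strands, and 6.02% of the 32851 promoter windows and 6.86% of their genes held it. Ppp1r3c was the only one of the 7 matched genes with it. The match describes letters in a window and was not linked to binding here.

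Ppp1r3c ranged from 32.9 through a median of 80.1 to 366 CPM in SPF WT, and from 89.5 through 177 to 274 in SPF LKO. In GF WT the range was 28.9 through 128 to 387 CPM, and in GF LKO 104 through 184 to 285. WT livers thus reached both lower and higher than LKO livers. The lowest SPF values came from libraries that stood apart, labelled SPF WT ZT14 replicate 3 (32.9 CPM) and SPF LKO ZT14 replicate 2 (89.5 CPM). The pooled log2 fold change of LKO against WT was 0.70 ± 0.23 in SPF (adjusted p = 0.0220) and 0.50 ± 0.26 in GF (adjusted p = 0.153). Single times were called near the WT trough. At ZT10 SPF WT livers had 67.2, 45.004 and 36.3 CPM against 148, 180 and 177 in SPF LKO, a log2 fold change of 1.76 (adjusted p = 6.39e-05). At the same time GF WT livers had 32.9, 31.7 and 38.7 CPM against 161, 210 and 263 in GF LKO, a log2 fold change of 2.63 (adjusted p = 1.51e-06). At the WT crest, ZT22, the groups overlapped: 170, 154 and 366 CPM in SPF WT, 274, 136 and 177 in SPF LKO, 328, 247 and 387 in GF WT, and 251, 196 and 187 in GF LKO. The curve of Ppp1r3c spanned 4.12-fold in SPF WT, peaking at ZT21.6 (adjusted p = 0.000427), and 7.61-fold in GF WT, peaking at ZT22.8 (adjusted p = 4e-06). It did not pass in SPF LKO (adjusted p = 0.524) or GF LKO (adjusted p = 0.510). The WT and LKO rhythms differed, with adjusted p = 0.0365 among SPF mice and 1.05e-05 among GF mice.

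Ppp1r3g (ENSMUSG00000050423; chr13:35958839-35970388, plus strand; Gm30127 is antisense to it), also a targeting subunit, was the least even of the 9 genes. Replicates of 1 time differed widely, as at ZT14 in GF WT with 73.9, 17.1 and 0.0618 CPM, and in 1 SPF LKO library no read was counted. The median was 1.92 CPM in SPF WT, 0.510 in SPF LKO, 7.85 in GF WT and 2.24 in GF LKO, and the ranges of the groups overlapped. GF WT was highest at ZT10, at 37.02, 38.2 and 50.4 CPM, above the GF LKO livers at 4.40, 1.28 and 12.5 and the SPF WT livers at 9.54, 1.65 and 1.62. The log2 fold change of LKO against WT was -2.43 ± 0.55 in GF (adjusted p = 0.000567) and -1.56 ± 0.60 in SPF (adjusted p = 0.0578). The SPF value was -2.57 without the 4 libraries, with adjusted p = 0.000709. The library labelled SPF LKO ZT14 replicate 2 held 14.9 CPM where the others of its time held 0.0522 and 0.147. GF WT exceeded SPF WT by 1.94 ± 0.59 (adjusted p = 0.0112), and by 3.31 at ZT10. GF LKO against SPF LKO gave 1.07 ± 0.54 (adjusted p = 0.117) with all libraries and 2.20 (adjusted p = 0.000405) without the 4.

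Counted over all ZT, 4 of the 9 genes were higher (Gyg, Ugp2, Pygl, Ppp1r3c) and 2 lower (Gys2, Gbe1) in SPF LKO than in SPF WT, where 23.1% of the 13159 genes tested were called, 11.6% higher and 11.5% lower. In GF mice 2 were higher (Gyg, Pygl) and 3 lower (Gys2, Gbe1, Ppp1r3g), against 30.8% of genes called in either direction, 15.6% higher and 15.2% lower. The median log2 fold change of the 9 was 0.26 in SPF and 0.15 in GF, and that of all genes -0.01 and 0.01. GF against SPF in WT mice called 2 genes higher (Gyg, Ppp1r3g), where 31.8% of all genes were called, 14.2% higher and 17.7% lower, a share above that of the 9. The same contrast in LKO mice called Gyg higher and Gys2 and Gbe1 lower, against 36.4% of all genes, 18.1% higher and 18.4% lower. The Gys2 call there did not hold without the 4 libraries (-0.12, adjusted p = 0.0895, from -0.33 ± 0.12, adjusted p = 0.0239), while that of Gbe1 did (-0.21, from -0.30 ± 0.08). The microbial medians were 0.22 in WT and 0.08 in LKO, against -0.02 for all genes in both. Each group of 18 entered a genotype and a microbial contrast, so these comparisons share libraries.

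**Figure D3:**
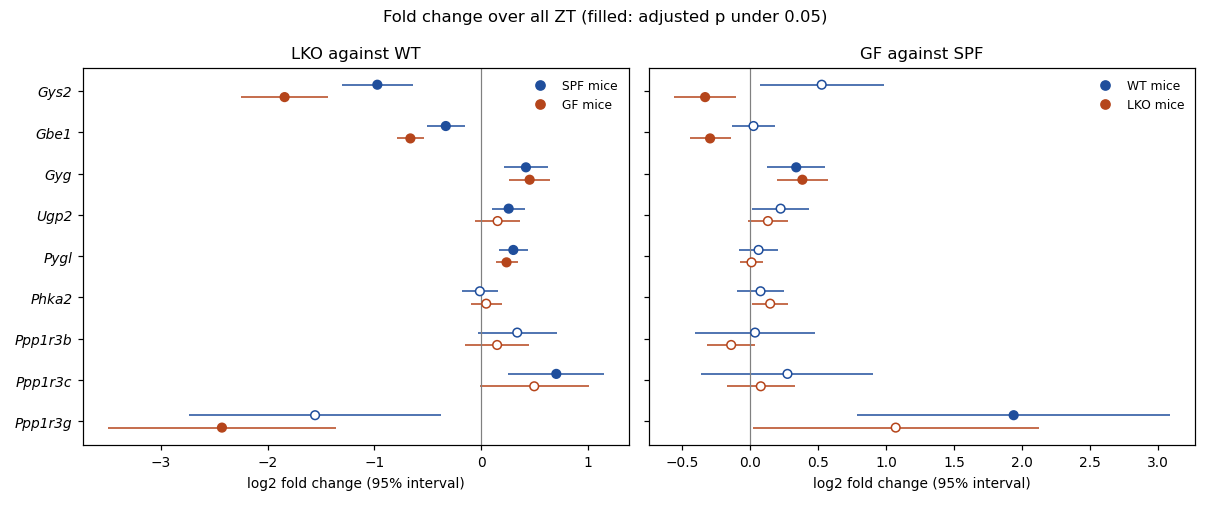
Log2 fold change of each gene over all ZT, LKO against WT in SPF and GF mice (left) and GF against SPF in WT and LKO mice (right), with 95% intervals and filled points for adjusted p under 0.05. Gys2 and Gbe1 lie left of 0 and Gyg and Pygl right of 0 in both genotype contrasts, all filled.

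Whether the genotype effect itself differed between GF and SPF mice was tested by the interaction. None of the 9 genes was called: 0 of 9, where 0.438% of all genes were, by edgeR. At unadjusted p under 0.05 there were 2, Gys2 (-0.88 ± 0.27, unadjusted p = 0.00168, adjusted p = 0.184) and Gbe1 (-0.34 ± 0.11, unadjusted p = 0.00418, adjusted p = 0.295), and DESeq2 also called none. With ZT as a term in the fit, Gys2 was called (-0.76, adjusted p = 0.0390). Without the 4 libraries, and with no term for ZT, edgeR gave -0.66 for Gys2 (adjusted p = 0.566) and -0.23 for Gbe1 (adjusted p = 0.766).

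At single times the genotype effect passed in 10 of 54 tests in SPF mice, 7 higher and 3 lower, against 4.92% of all tests, 2.49% higher and 2.43% lower. In GF mice it passed in 15 of 54, 4 higher and 11 lower, against 7.99%, 3.87% higher and 4.12% lower. Beyond those given above, the SPF calls were Ppp1r3b at ZT2 (0.73, not called with DESeq2 size factors) and Ppp1r3c at ZT6 (1.58), and the GF calls Ppp1r3c at ZT14 (1.94) and Ppp1r3g at ZT10 (-2.78). In SPF mice 0 of the 9 were called at ZT14, ZT18 and ZT22, with 3, 3 and 5 at unadjusted p under 0.05 and 0 in each by DESeq2. Of all genes, 0% were called at ZT14 in SPF mice, 0.015% at ZT18 and 3.31% at ZT22. Without the 4 libraries the SPF count was 17 and the GF count 17. Not yet named among these were Ppp1r3b at ZT6 in SPF (1.57, adjusted p = 0.00189 against 0.0514 with all libraries), and Pygl (0.38, adjusted p = 0.0241) and Ppp1r3g (-4.33, adjusted p = 0.0303) at ZT14 in GF. For these calls the libraries left out belonged to other groups of the same time, whose spread entered the shared fit. GF against SPF passed in 6 of 54 tests in WT, 5 higher and 1 lower, against 2.89% of all tests, 1.72% higher and 1.17% lower. Of the 6, 4 were at ZT10 and the others were Gyg at ZT2 and Gys2 at ZT6 (0.52, and 0.46 with adjusted p = 0.0643 without the 4 libraries). In LKO it passed in 2 of 54, against 2.71%, 1.69% higher and 1.02% lower. Both were higher, at ZT2: Gyg (0.60) and Ppp1r3g (3.89).

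The 24 h curve passed for 6 of the 9 genes in SPF WT, against 15.5% of all genes, and for 2 in SPF LKO, against 22.2%. It passed for 7 in GF WT, against 27.7%, and for 4 in GF LKO, against 36%. The called curves of WT livers peaked across the cycle, with Phka2, Gyg, Ugp2 and Ppp1r3g by day, Gys2 near lights off, and Gbe1, Pygl, Ppp1r3b and Ppp1r3c by night. Differences of rhythm between LKO and WT were called for 2 of 9 in SPF (Ppp1r3b, Ppp1r3c), against 1.06% of all genes, and for 2 of 9 in GF (Gys2, Ppp1r3c), against 6.04%. With the 4 libraries left out they were 3 and 3. Between microbial states 0 of 9 were called in WT, against 0.0442% of all genes, with 5 at unadjusted p under 0.05. In LKO 0 of 9 were called, against 4.96%, with 2 at unadjusted p under 0.05.

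**Figure D4:**
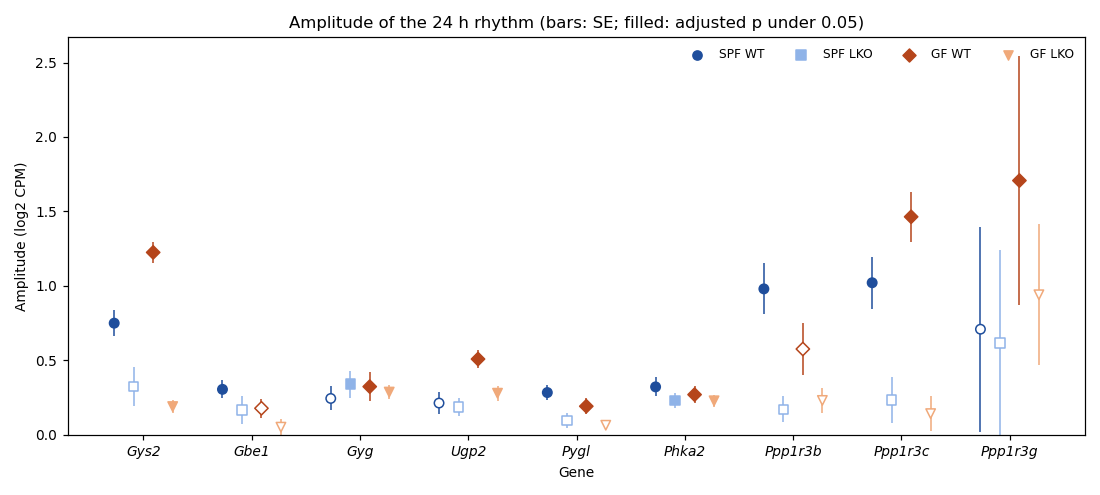
Amplitude of the fitted 24 h curve (log2 CPM) of each gene in the 4 groups, with bars for SE and filled points for adjusted p under 0.05. Gys2, Ppp1r3b and Ppp1r3c have amplitudes from 0.58 to 1.46 in WT livers and at most 0.33 in LKO livers.

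Within a group the members' levels moved with or against each other over the 18 libraries, which share their 6 times, so the correlations are descriptions. Gys2 and Ppp1r3c ran opposite in WT livers, with r = -0.73 in SPF WT and -0.84 in GF WT, and r was -0.32 in SPF LKO and 0.18 in GF LKO. Phka2 ran opposite to Ppp1r3b, with r = -0.77 in SPF WT and -0.91 in GF WT, and r was -0.34 in SPF LKO and -0.50 in GF LKO. Gyg and Phka2 ran together, with r from 0.65 to 0.90 in the 4 groups. Over all 72 libraries, which share ZT and group, the genes most like Gys2 among 10701 compared were Lrp4 (r = 0.926), Efhd2 (0.924) and Aqp11 (0.919). The gene most like Pygl was the clock gene Cry1 (0.793), the gene most like Ppp1r3c was Slc30a10 (0.870), and the gene most like Ppp1r3b was Ahctf1 (0.839). Those most like Gbe1, Gyg, Phka2 and Ppp1r3g were Nrp2 (0.852), Enpp5 (0.826), Ift46 (0.830) and Cln8 (0.791).

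Of 28 other glycogen genes listed, 24 were tested. In SPF mice 3 were higher and 1 lower in LKO, and in GF mice 5 were higher and 4 lower, beside the 23.1% and 30.8% of all genes called. The 4 called in both states moved the same way in each. Phkb, the beta subunit of phosphorylase kinase, was higher by 0.24 and 0.28 (log2, SPF and GF), and Ppp1ca, a catalytic subunit of phosphatase 1, by 0.17 and 0.16. Gckr, which holds glucokinase inactive in the nucleus, was higher by 0.46 and 0.60. Slc2a2, the hepatic glucose transporter GLUT2, was lower, at -0.52 and -0.88. GF against SPF called 4 higher and 2 lower in WT and the same numbers in LKO, beside 31.8% and 36.4%. Those called in both genotypes were Pgm1, a phosphoglucomutase (0.21 and 0.11), Phkb (0.14 and 0.18) and Epm2a, the glycogen phosphatase laforin (0.28 and 0.21), each higher in GF. None of the 24 was called for the interaction. Rhythms were called for 5 of the 24 in SPF WT, 4 in SPF LKO, 11 in GF WT and 7 in GF LKO, beside 15.5%, 22.2%, 27.7% and 36% of all genes, and a difference of rhythm between GF LKO and GF WT for 1, Stbd1, which anchors glycogen to membranes.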

How the data were processed

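Flash-frozen livers of 72 mice were sequenced as bulk mRNA from a stranded kit. Per the submitters' processing notes the reads were aligned to mm10 with STAR 2.6.1b, and the authors counted reads per gene with featureCounts 2.0.0. The deposited values are raw counts per Ensembl gene, not normalized, and the header of the deposited table shows counting without strand, with reads that overlap several genes left out. No library was identical to another (0 pairs), and 22224 of the 55573 genes had no count. The labels number samples within a group and time, and p-values at single times measure the spread between these samples. The tests pooled over ZT had no term for time, so their spread also held the differences between times. In the tests of rhythm the spread was that around the fitted curve.

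Symbols and GRCm38 exon lengths came from the reference annotation. CPM used TMM factors over all 72 libraries. Groups were compared with edgeR 4.0.16 (R 4.3.3) by the quasi-likelihood F test after its filter on low counts, with Benjamini-Hochberg adjustment over all genes tested and calls at 0.05, pooled over ZT and at each ZT. SE is the size of the log2 fold change over the square root of F. Rhythms were F tests of a 24 h cosine and sine, and their differences were the interaction with group. The study's own test, DESeq2 (1.42.0), was an alternative, as were limma 3.58.1, DESeq2 size factors, no filter, ZT as a term, a replicate block and leaving out libraries. The steps were tested on simulated data. The table of counts was summarised in Python 3.11.15 with pandas 2.3.3 and drawn with matplotlib 3.10.9.

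The members and lists were chosen with earlier results of these data known. All 9 genes were named in each comparison, single-time values for those called there, other glycogen genes only if called in both states, and the genes of highest Pearson r with a member among those whose log2 CPM averaged 1 or more (for Ugp2 not reported here). RefSeq promoter windows were searched over 250 bases before the start.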

Additional observations from a re-analysis of the deposited data

Results flagged for a closer look

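A test of the difference itself, by edgeR with Benjamini-Hochberg adjustment over all genes, separated the 24 h curves of LKO and WT livers for 4 results. In SPF mice these were Ppp1r3b (adjusted p = 0.0337), with amplitudes of 0.98 ± 0.17 in WT and 0.17 ± 0.09 in LKO (log2, SE, n = 18), and Ppp1r3c (adjusted p = 0.0365), with 1.02 ± 0.18 and 0.23 ± 0.15. In GF mice these were Gys2 (adjusted p = 6.65e-11), with 1.22 ± 0.07 and 0.19 ± 0.05, and Ppp1r3c (adjusted p = 1.05e-05), with 1.46 ± 0.17 and 0.14 ± 0.12. In each of the 4 the LKO amplitude was the smaller. The SPF results held less well than the GF ones. With time as a 6-level factor 0 were called in SPF and 2 in GF. With a replicate number left out the counts were 0 to 1 in SPF and 2 to 4 in GF.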

How the results depend on the processing

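Under DESeq2, other size factors and no filter, the counts of the 9 genes called over all ZT stayed within 1.5 times those given. With ZT as a term in edgeR's fit, 4 genes were called for GF against SPF in WT (2 otherwise). Gys2 (0.38, adjusted p = 0.0006) and Ugp2 (0.19, adjusted p = 0.0420) were added. In LKO 4 were called (3 otherwise), and 1 for the interaction (0 otherwise). The genotype effect then called 8 genes in SPF (6 otherwise), adding Ppp1r3b (0.48, adjusted p = 0.0143) and Ppp1r3g (-1.95, adjusted p = 0.0190). In GF it called 7 (5 otherwise), adding Ugp2 (0.19, adjusted p = 0.0108) and Ppp1r3c (0.83, adjusted p = 0.00342). Without a filter, rhythms were called for 4 genes in SPF LKO (2 otherwise), and differences of rhythm between microbial states for 1 gene in WT and 2 in LKO (0 otherwise). With time as a 6-level factor, rhythms were called for 0 genes in SPF LKO and 4 in GF WT (7 otherwise), and a difference of rhythm in SPF for 0 (2 otherwise, 1 by limma). At single times the SPF genotype count of 10 became 16 by DESeq2, 22 without a filter and 17 without the 4 libraries that stood apart; the GF count of 15 became 25 without a filter; the microbial count in WT, 6, became 16 without a filter; and that in LKO, 2, became 5 by DESeq2 and 10 without a filter. The cause of these shifts was not tested.

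With single libraries or replicate numbers left out, counts over all ZT ran from 3 to 7 (genotype, SPF), 4 to 5 (genotype, GF), 0 to 2 (microbial, WT), 1 to 4 (microbial, LKO) and 0 to 0 (interaction). Rhythm counts ran from 3 to 5, 0 to 0, 3 to 9 and 3 to 4 in SPF (WT, LKO) and GF (WT, LKO) livers, and counts of rhythm differences from 0 to 1 (SPF), 2 to 4 (GF), 0 to 0 and 0 to 0 (microbial). Single-time counts ran from 7 to 13, 13 to 16, 3 to 7 and 0 to 3. The microbial single-time count in WT was 3 without SPF WT ZT10 replicate 2 or GF WT ZT10 replicate 2, and that in LKO was 0 or 1 without any 1 of SPF LKO ZT2 replicates 1, 2 and 3 and GF LKO ZT2 replicates 1 and 3.

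Signs turned in 19 values, none with an adjusted p under 0.617; the following are log2 fold changes. The SPF genotype effect of Phka2 was 0.00 without SPF LKO ZT18 replicate 1, 0.022 without the 4 libraries and from -0.049 to 0.057 with a replicate number left out. For GF against SPF in WT, Gbe1 was -0.00 without GF WT ZT6 replicate 3 and from -0.0021 to 0.075 without a replicate number, Pygl from -0.0059 to 0.12, and Ppp1r3b -0.036 without that library, -0.076 without the 4 and from -0.19 to 0.16. For GF against SPF in LKO, Pygl was -0.012 without SPF LKO ZT14 replicate 2, -0.017 without the 4 and from -0.026 to 0.031. For the interaction, Gyg was -0.0072 without SPF LKO ZT14 replicate 2, -0.082 without the 4 and from -0.0085 to 0.057, Phka2 from -0.027 to 0.11, Ppp1r3b from -0.33 to 0.016, and Ppp1r3g 0.042 without the 4, 0.055 without SPF LKO ZT14 replicate 2 and from -1.31 to -0.12 without a replicate number.

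Replicate numbers did not pair the samples: of 72 pairs of same-numbered libraries, 20 had deviations correlated over 0.1, with correlations from -0.356 to 0.459 over 10710 genes. With a replicate block the counts were 7, 7, 3, 4 and 0 over all ZT, 6, 2, 8 and 4 for rhythms, 2, 2, 0 and 0 for differences of rhythm, and 9, 15, 4 and 2 at single times, no longer including Gys2 at ZT2 in GF and Gyg at ZT10 in SPF (genotype) and Gys2 at ZT6 and Ppp1r3b at ZT10 in WT (microbial). Limits: 3 mice a time give single-time tests little precision, most of all for Ppp1r3g, whose SD within a time was 1.16 to 2.12 log2 units, against 0.0793 to 0.175 for Pygl.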

Other observations

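The other marker lists, given as values with no test, were as follows. The 5 Kupffer cell and macrophage markers summed to medians of 239, 204, 216 and 180 CPM in SPF (WT, LKO) and GF (WT, LKO) livers, the 5 endothelial markers to 162, 156, 157 and 159, the 5 stellate cell markers to 279, 300, 268 and 305, and the 5 lymphocyte markers to 13.4, 10.7, 8.47 and 7.76. The 5 red cell markers summed to 277, 213, 288 and 221 CPM, and the 5 skeletal muscle markers to at most 0.969 in the median of a group, with Ckm, Acta1, Myh4 and Tnnt3 at a median of 0 over the 72 libraries. Mitochondrial genes took a median of 6.68%, 5.56%, 7.02% and 5.47% of counts in the same order of groups.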
